A study of Mus musculus with 14 samples.

Results

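The subject of this section is 7 genes grouped under platelet cytoskeleton and intracellular signalling: Tubb1, Myl9, Plek, Rgs18, Gng11, Alox12 and Cd9. The group is loose, as Cd9 encodes a membrane tetraspanin and Alox12 a lipid-oxidizing enzyme. All probe sets that the platform annotation assigns to exactly 1 of these symbols were taken, which gave 11 of the 45101 probe sets of the array. Plek is read by 3 probe sets, Rgs18 and Alox12 by 2 each and the other genes by 1. Where a gene has several, the one with the highest mean level stands for the gene in counts of genes.

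RNA came from peripheral blood of mouse embryos at day E12.5, pooled from 8 to 10 embryos that shared a genotype, and was hybridized to 14 Affymetrix arrays. Cbfb+/MYH11 embryos (4 arrays) carry the Cbfb-MYH11 fusion on 1 Cbfb allele, and their WT littermates (4 arrays) are Cbfb+/+. Both come from chimeras bred to C57/Bl6 females, and the fusion allele was inherited, not limited to blood cells. Cbfb-/- embryos (3 arrays) and their littermates, called Cbfb+/+ (3 arrays), come from matings of Cbfb+/- parents, whose strain the labels do not give. Arrays of 1 group are named technical replicates in the labels, and p-values here therefore reflect spread among arrays alone, which may be technical.

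Cbfb encodes the partner subunit of the Runx transcription factors, and Runx1 is needed for the formation of megakaryocytes, the parents of platelets. Platelets keep their disc shape by a ring of microtubules, contract through myosin and respond to agonists through G-protein-coupled receptors, protein kinase C and lipid mediators. Several of these proteins are not limited to platelets: pleckstrin is abundant in white blood cells, the myosin light chain in smooth muscle and CD9 on many cell types.

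The values are log2 RMA intensities, so that a difference of 1 is a doubling, and a level under 6 may be background. The median of an array was 4.27 to 4.46, and 20.3 to 24.0% of its probe sets reached 6. The embryonic globins Hba-x, Hbb-bh1 and Hbb-y were between 13.96 and 14.55 on every array, and the means of 5 lymphoid markers were under 6 in every group. Cbfb was read by 1 probe set, at 6.91 to 8.56 in the fusion embryos, 6.57 to 8.31 in WT, 6.80 to 7.03 in Cbfb-/- and 6.27 to 6.56 in Cbfb+/+. The files do not show whether this probe set reads the altered stretch, so the genotype labels are not checked by it. Arrays 1 and 2 (the first pair) and arrays 3 and 4 (the second pair) of each genotype of the fusion cross stood apart from each other. The SD of the log2 differences was 0.11 to 0.28 within these pairs and 0.40 to 0.75 between them, against 0.20 to 0.22 in the null cross. Results of the fusion cross are therefore also given within each pair. This split was made after seeing the same data on which it is tested, with 2 arrays of a genotype in each pair. The p-values within and between pairs are scaled by how closely repeat arrays match. They cannot decide whether the embryos or pools behind the pairs differ.

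Of the 11 probe sets, 8 reached 6 on at least 3 arrays. Both Rgs18 probe sets and Alox12 1422700_at never reached it.

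Myl9, Alox12 and Rgs18 were lower with both alleles, Gng11 and Cd9 were lower with the fusion, Tubb1 was lower without Cbfb, and Plek rose with the fusion and fell without Cbfb. On 1448748_at the Plek change was -0.02 within the first array pair of the fusion cross against 2.39 within the second, and the rise over all 4 arrays a genotype lost its call without any 1 of 4 of the 8 arrays. The difference between the alleles was called for 2 of the 7, Tubb1 and Plek. Each allele was measured in its own cross. A difference between alleles, here and below, therefore cannot be told apart from one between crosses or array batches. By limma on all 45037 probe sets (Benjamini-Hochberg adjusted p under 0.05 and at least 1.5-fold), Myl9, Alox12, Rgs18, Gng11 and Cd9 fell in Cbfb+/MYH11 blood, Plek rose, and Tubb1 was not called. Of all probe sets, 2.94% were called lower and 10.5% higher there. In Cbfb-/- blood Tubb1, Rgs18, Plek, Alox12 and Myl9 fell, while Gng11 and Cd9 were not called, and 3.03% of all probe sets were called lower and 6.66% higher. When 1 of the 6 arrays of the null cross was left out, 3 to 4 of these 5 falls stayed called. Alox12 lost its call without any of the 6, and Plek 1448748_at without any of 5. The arrays of mutant and littermates did not overlap for 5 of the 7 genes in the fusion cross and for 7 of 7 in the null cross, where 26.1% and 39.9% of all probe sets did not overlap. The median change of the 7 was -1.38 and -1.45, against -0.11 and -0.07 over all probe sets. Calls were more frequent among brighter probe sets. Tested alone, the 12190 that reached 6 on at least 3 arrays gave 3701 higher and 687 lower in Cbfb+/MYH11. In Cbfb-/- they gave 2411 higher and 891 lower. Their median changes were 0.27 and 0.13. Of the 6 member genes among them, 1 rose and 4 fell with the fusion, and 0 rose and 4 fell without Cbfb. When the arrays were averaged into 6 putative pools (each array pair of the fusion cross and each genotype of the null cross), 0 of the 7 genes were called in either mutant, with the lowest adjusted p, 0.101, for Myl9 in Cbfb+/MYH11. Of all 45037 probe sets, limma on these pools called 58 in the fusion comparison and 0 in the null one, where 1728 had an unadjusted p under 0.05; each null genotype is then 1 pool, whose spread is taken from the fusion cross. In blood, fewer cells of a type and less RNA per cell cannot be told apart.

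**Figure D1:**
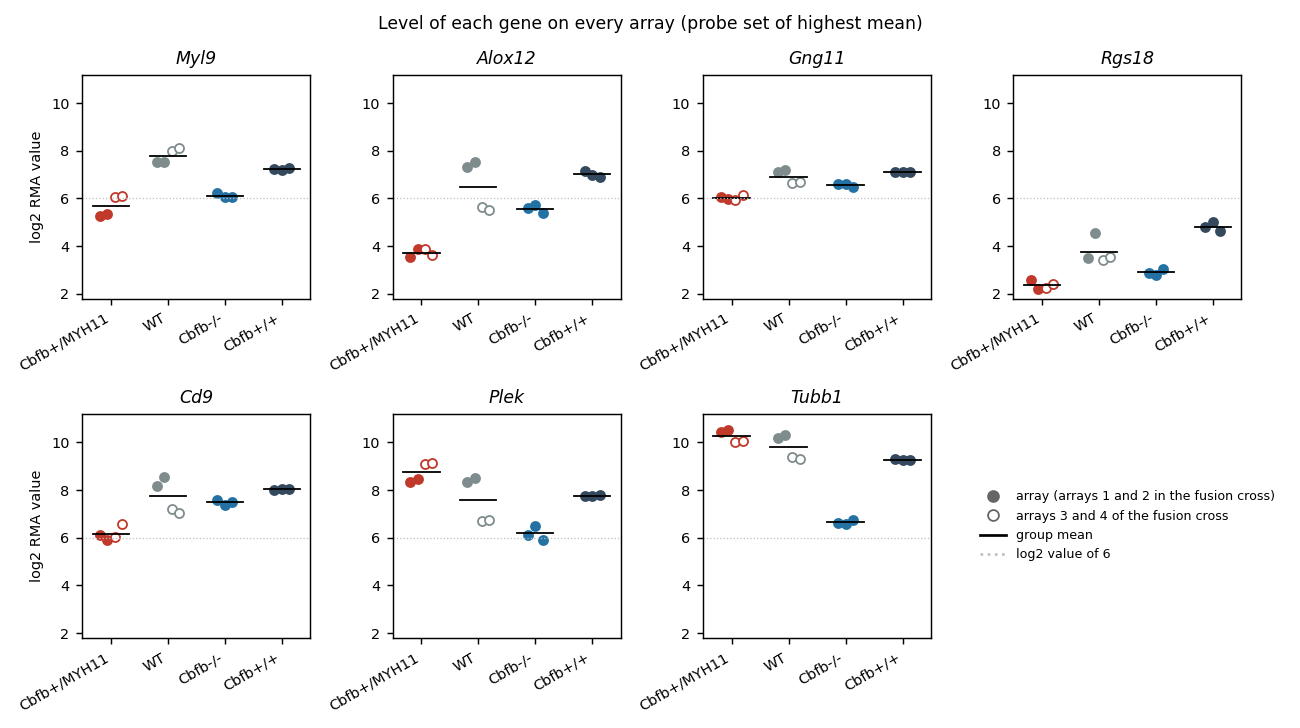
The log2 level of the 7 genes (highest probe set of each) on every array, by group, with the mean of each group as a line; open points are arrays 3 and 4 of the fusion cross. Tubb1 on the Cbfb-/- arrays (6.59 to 6.74) lies far below its other 11 arrays, and Alox12 on the Cbfb+/MYH11 arrays (3.55 to 3.87) below all others.

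The promoters of 5 of the 7 genes were found in the RefSeq promoter table (build GRCm38.p6; not Rgs18 and Gng11). Shown are the 250 bases before the start of 2 genes that fell with both alleles (Myl9 and Alox12) and of the 2 whose effects differed between the alleles (Tubb1 and Plek). They are read 5′ to 3′ on the strand of the gene, and capitals mark the motif matches described below.
Myl9 promoter: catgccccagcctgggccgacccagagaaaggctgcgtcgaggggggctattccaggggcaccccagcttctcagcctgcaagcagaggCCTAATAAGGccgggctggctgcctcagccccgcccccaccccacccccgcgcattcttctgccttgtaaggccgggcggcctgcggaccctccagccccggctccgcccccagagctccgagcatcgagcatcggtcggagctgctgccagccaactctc
Alox12 promoter: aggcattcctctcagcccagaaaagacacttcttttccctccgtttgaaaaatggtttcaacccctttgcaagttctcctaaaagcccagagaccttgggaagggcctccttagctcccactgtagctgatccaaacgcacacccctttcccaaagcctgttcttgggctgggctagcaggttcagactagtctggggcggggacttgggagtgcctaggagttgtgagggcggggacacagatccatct
Tubb1 promoter: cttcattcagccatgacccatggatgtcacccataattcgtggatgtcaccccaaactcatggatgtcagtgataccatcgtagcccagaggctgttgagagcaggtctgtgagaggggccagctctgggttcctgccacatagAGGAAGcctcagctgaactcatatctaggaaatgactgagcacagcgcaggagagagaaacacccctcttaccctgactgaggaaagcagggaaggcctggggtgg
Plek promoter: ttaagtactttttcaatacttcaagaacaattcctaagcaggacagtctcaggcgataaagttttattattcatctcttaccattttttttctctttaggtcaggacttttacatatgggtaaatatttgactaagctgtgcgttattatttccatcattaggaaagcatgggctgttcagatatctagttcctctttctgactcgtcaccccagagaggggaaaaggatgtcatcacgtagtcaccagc
These lie at chr2:156775214-156775463 (plus strand, Myl9), chr11:70255371-70255620 (minus, Alox12), chr2:174450345-174450594 (plus, Tubb1) and chr11:17008719-17008968 (minus, Plek). Windows of 300 bases, from 250 before to 50 after the start, were searched on both strands. The Runx core letters TGTGGT were in 0 of the 5 promoters, against 16.8% of 32817 promoters in the table, and TGCGGT was in 1 of 5 (6.45% of all), in the bases after the start of Myl9. The GATA core AGATAA or TGATAA was in 0 of 5 (18.6%) and AGATAG or TGATAG in 0 of 5 (15.3%). The ETS core AGGAAG was in 2 of 5 (35.4%), Tubb1 at -106 and Cd9 at -203. The CArG box, the element of serum response factor, was in 1 of 5 (1.63%), Myl9 at -161, and it overlapped no other motif. A match is a string of letters and not a site, and a window without one tells nothing of the factor.

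Tubb1, the beta tubulin of the platelet microtubule ring, had the largest fall of the 7 in the null cross. Its log2 level was 10.45, 10.54, 10.03 and 10.04 on the Cbfb+/MYH11 arrays and 10.20, 10.33, 9.37 and 9.32 on the WT arrays. It was 6.63, 6.59 and 6.74 in Cbfb-/- and 9.29, 9.27 and 9.27 in Cbfb+/+. The Cbfb-/- arrays lay below all others, and the fusion and WT arrays overlapped. Tubb1 fell by 2.62 in Cbfb-/- (6.15-fold, 95% interval 4.32 to 8.76; limma, adjusted p = 2.31e-05). Its change in Cbfb+/MYH11 was 0.46 (adjusted p = 0.113), with an interval from 0.02 to 0.90; without WT array 2 it was 0.64 and called (adjusted p = 0.0333). The 2 effects differed by 3.08 (adjusted p = 2.35e-05). Of all probe sets 4.72% had a called difference in this direction and 2.8% in the other. Within arrays 1 and 2 the change was 0.23 (adjusted p = 0.111), and within arrays 3 and 4 it was 0.69 (adjusted p = 2.1e-04), a rise that quantile normalization lowers to 0.41, under 1.5-fold. The pairs differed by 0.47 (adjusted p = 0.0901).

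Other tubulins were tested in a list of 24 paralogues of the 7 genes, of which 6 rose and 4 fell in Cbfb+/MYH11 and 4 rose and 0 fell in Cbfb-/- (4 and 5, and 3 and 2, after quantile normalization). The shares over all probe sets were 10.5% higher and 2.94% lower in Cbfb+/MYH11, and 6.66% and 3.03% in Cbfb-/-. Tubb2b, a beta tubulin of nerve cells and other embryonic tissues, rose by 4.61 in Cbfb-/- (mean level 8.34 against 3.73, adjusted p = 0.00454). Tubb3 rose by 2.13 there (5.78 against 3.65, both under 6, adjusted p = 0.00847). Tubb5, a widely expressed beta tubulin, rose in Cbfb+/MYH11 (11.87 against 10.37, adjusted p = 9.47e-04). Tuba4a, the alpha tubulin abundant in platelets, fell by 0.63 in Cbfb-/-, or 0.58 and under 1.5-fold with each array centred on its median.

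Myl9, the regulatory light chain through which myosin contraction is switched on, was lower with both alleles. Its level was 5.25, 5.36, 6.08 and 6.09 on the Cbfb+/MYH11 arrays and 7.52, 7.54, 8.00 and 8.12 in WT. In the null cross it was 6.21, 6.06 and 6.05 in Cbfb-/- against 7.23, 7.19 and 7.27 in Cbfb+/+. No mutant array reached its littermates in either cross. Myl9 fell by 2.10 in Cbfb+/MYH11 (4.29-fold, 3.23 to 5.70; adjusted p = 2.69e-06) and by 1.12 in Cbfb-/- (2.18-fold, 1.57 to 3.02; adjusted p = 0.00464). It fell by 2.23 in the first array pair and by 1.97 in the second, with a difference between pairs of 0.25 (adjusted p = 0.466). The difference between the alleles was -0.98 (interval -1.60 to -0.35; adjusted p = 0.0556). It passed with the replicate number as a block (adjusted p = 0.00161), after quantile normalization (adjusted p = 0.016) and without Cbfb+/MYH11 array 3 (adjusted p = 0.033), Cbfb+/MYH11 array 4 (adjusted p = 0.0312), WT array 1 (adjusted p = 0.037) or WT array 2 (adjusted p = 0.0423). It also passed with the array pair as a block (adjusted p = 7.92e-05) and among probe sets that reached 6 on at least 3 arrays (adjusted p = 0.0322). The same held with 1 such probe set per gene (adjusted p = 0.0308) and with the mean of a gene's probe sets (adjusted p = 0.0394). With the 6 putative pools it was not called.

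Myl9 is also a gene of smooth muscle. The summed linear level of 8 smooth muscle markers was, on the log2 scale, 8.62 to 8.95 on WT arrays 1 and 2, 10.65 to 10.72 on WT arrays 3 and 4, 8.75 to 9.15 in Cbfb+/MYH11, 9.09 to 9.12 in Cbfb-/- and 8.80 to 8.92 in Cbfb+/+. The group means of 1 of the 8 in Cbfb+/MYH11 and 2 of the 8 in WT reached 6. In arrays 1 and 2, where 0 of the 8 were called in either direction, Myl9 fell as well, and in arrays 3 and 4, 5 of the 8 fell. In Cbfb-/- 0 of the 8 were called. Their part in the Myl9 result was not tested.

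Plek, pleckstrin, the main substrate of protein kinase C in platelets, differed most between the array pairs. On 1448748_at, the probe set of highest mean, the level was 8.35, 8.48, 9.09 and 9.12 on the Cbfb+/MYH11 arrays and 8.35, 8.52, 6.70 and 6.74 in WT. It was 6.13, 6.51 and 5.90 in Cbfb-/- and 7.74, 7.77 and 7.81 in Cbfb+/+. WT arrays 1 and 2 lay at the level of the fusion arrays 1 and 2, and WT arrays 3 and 4 far below. Plek rose by 1.18, 1.25 and 1.72 in Cbfb+/MYH11 on 1448748_at, 1448749_at and 1417523_at (adjusted p = 0.0264, 0.035 and 0.00122). Within arrays 1 and 2 the changes were -0.02 (adjusted p = 0.931), -0.18 (adjusted p = 0.349) and 0.64 (adjusted p = 0.00269, called), and within arrays 3 and 4 the rises were 2.39, 2.67 and 2.80. After quantile normalization 1448749_at was called lower within arrays 1 and 2 (-0.63, adjusted p = 0.00114) and 1417523_at was not called there (0.36, adjusted p = 0.0764). The pairs differed by 2.41, 2.84 and 2.16 (adjusted p = 6.5e-06, 4.79e-07 and 7.92e-06). As the split was made after seeing these data, these p-values describe these arrays and cannot decide whether the difference would recur. Of all probe sets 2.14% had a called difference between pairs in this direction and 4.44% in the other. On 1417523_at the level was 6.73, 6.85, 7.43 and 7.43 in the fusion embryos and 5.98, 6.32, 4.65 and 4.60 in WT, with no overlap.

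Over all 4 arrays a genotype, the rise of Plek on 1417523_at lost its call with the 6 putative pools and kept it under the other settings that tested this probe set, whereas the rises on 1448748_at and 1448749_at lost theirs under several. Without Cbfb+/MYH11 array 3 or 4 or WT array 3 or 4 the change of 1448748_at was 1.07, 1.06, 0.89 and 0.90 and was not called (adjusted p = 0.0779, 0.0799, 0.0598 and 0.0638). After quantile normalization it was 0.82 (adjusted p = 0.173), and with the fusion cross alone adjusted p was 0.0894. With the replicate number as a block 1448749_at was not called (adjusted p = 0.0539). In Cbfb-/- the first 2 probe sets fell by 1.59 and 1.90 (adjusted p = 0.0203 and 0.0148) and the third was at -0.97 (adjusted p = 0.0963), which was called with the array pair as a block (adjusted p = 0.0449) and with the null cross alone (adjusted p = 4.88e-04). Leaving out any 1 array of this cross except Cbfb-/- array 2 ended the call of 1448748_at (adjusted p between 0.0562 and 0.0764), and leaving out Cbfb+/+ array 1 that of 1448749_at (adjusted p = 0.0513). The effects of the alleles differed on all 3 probe sets, by 2.78, 3.15 and 2.70 (adjusted p = 0.00534, 0.00488 and 0.003).

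Plek is shared with white blood cells. The summed level of 10 macrophage and monocyte markers was 11.30 to 11.52 on WT arrays 1 and 2, 9.38 to 9.42 on WT arrays 3 and 4, 9.76 to 10.10 in Cbfb+/MYH11, 8.79 to 8.93 in Cbfb-/- and 10.86 to 10.94 in Cbfb+/+. In Cbfb+/MYH11 0 of the 10 rose and 6 fell, with Mrc1 by 3.84 and Ctss by 2.60, and in Cbfb-/- 0 rose and 8 fell. Of the 4 not called in Cbfb+/MYH11, Csf1r (8.94 against 8.71), Lyz2 (7.99 against 7.30) and Cd14 had higher means there than in WT. The mean of Cd68 was lower (4.79 against 5.07). Within arrays 1 and 2, 0 of the 10 rose and 8 fell, and within arrays 3 and 4, 3 rose and 5 fell. The summed level of 8 mast cell and basophil markers was 10.04 to 10.68 in Cbfb+/MYH11 against 7.22 to 7.70 in WT, and 4 of the 8 rose there, Cd200r3 by 6.05 and Ms4a2 by 4.83. The other 4 were not called and had lower means in Cbfb+/MYH11 than in WT. These were Mcpt8 (4.26 against 4.72), Cma1 (4.45 against 4.83), Tpsb2 (4.74 against 4.80) and Fcer1a (2.82 against 3.09), all under 6. The part of the markers of both lists in the Plek result was not tested. Plek2, the pleckstrin paralogue expressed in red cells, fell by 1.63 in Cbfb+/MYH11 (adjusted p = 3.14e-08) and was at -0.31 in Cbfb-/- (adjusted p = 0.0711).

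Rgs18, a regulator that shortens G-protein signals in platelets, was under 6 on every array. On 1420398_at its level was 2.60, 2.20, 2.23 and 2.43 in Cbfb+/MYH11, 3.51, 4.56, 3.40 and 3.53 in WT, 2.86, 2.78 and 3.06 in Cbfb-/- and 4.80, 5.00 and 4.65 in Cbfb+/+. No mutant array reached its littermates. Rgs18 fell by 1.38 (2.61-fold; adjusted p = 2.08e-04) and by 1.92 (3.78-fold; adjusted p = 2.51e-04). As all 4 groups lay under 6, the littermates too may be at background. The sizes are uncertain and may be too small. In the fusion cross it fell by 1.63 in the first array pair and by 1.14 in the second, with a difference of 0.50 (adjusted p = 0.55). The second probe set, 1449856_at, was at -0.36 and -0.49, under 1.5-fold. The 2 effects differed by 0.53 (interval -0.14 to 1.21; adjusted p = 0.401), and by 0.81 and called without WT array 2 (adjusted p = 0.0145). Rgs18 was the member called between the littermate groups, 1.07 higher in Cbfb+/+ than in WT (adjusted p = 0.00864), where 2.2% of all probe sets were called higher and 2.36% lower. Cross and array batch cannot be told apart in that comparison.

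Gng11, a gamma subunit of heterotrimeric G proteins, had the smallest called change of the 7 in Cbfb+/MYH11. Its level was 6.05, 5.99, 5.92 and 6.15 in Cbfb+/MYH11, 7.12, 7.20, 6.66 and 6.70 in WT, 6.60, 6.60 and 6.47 in Cbfb-/- and 7.11, 7.11 and 7.12 in Cbfb+/+. It fell by 0.89 in Cbfb+/MYH11 (1.86-fold, 1.55 to 2.22; adjusted p = 9.51e-05). In Cbfb-/- the change was -0.56, 1.47-fold, with adjusted p = 0.0172, just under the fold minimum, and after quantile normalization it was -0.78 and called. It fell by 1.14 in the first array pair and by 0.65 in the second, where it was -0.55 and under 1.5-fold with arrays centred on their median. The allele difference was -0.33 (interval -0.73 to 0.06; adjusted p = 0.363).

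Alox12, the platelet lipoxygenase that oxidizes arachidonic acid, fell furthest in Cbfb+/MYH11. On 1422699_at its level was 3.55, 3.87, 3.87 and 3.61 on the Cbfb+/MYH11 arrays and 7.30, 7.54, 5.65 and 5.50 in WT. It was 5.62, 5.72 and 5.37 in Cbfb-/- and 7.16, 6.99 and 6.91 in Cbfb+/+. All 4 fusion arrays and all 3 Cbfb-/- arrays were under 6, so the folds may be too small. Alox12 fell by 2.77 (6.82-fold, 4.00 to 11.6; adjusted p = 6.38e-05), by 3.71 in the first array pair and by 1.83 in the second. The pairs differed by 1.88 (adjusted p = 7.06e-05). In Cbfb-/- it fell by 1.45 (2.73-fold; adjusted p = 0.0318), but leaving out any 1 of the 6 arrays of that cross ended the call (-1.35 to -1.52; adjusted p between 0.0651 and 0.0999). The mean of both Alox12 probe sets was at -0.78 there and not called (adjusted p = 0.0728). The second probe set, 1422700_at, was at -0.40 and -0.12 and was not called, but fell by 0.72 in the first array pair (0.57 and under 1.5-fold after quantile normalization). The difference between the alleles was -1.32 (adjusted p = 0.185); with the array pair as a block it passed (adjusted p = 0.0345), and without WT array 4 (-1.66; adjusted p = 0.0483).

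Of 11 other eicosanoid enzymes with a probe set, 2 rose and 1 fell in Cbfb+/MYH11 and 0 rose and 1 fell in Cbfb-/-. The shares over all probe sets were 10.5% higher and 2.94% lower in Cbfb+/MYH11, and 6.66% and 3.03% in Cbfb-/-. Alox5 and its activator Alox5ap, which make leukotrienes, rose in Cbfb+/MYH11 by 2.62 (adjusted p = 1.95e-07) and 1.01 (adjusted p = 0.0183). The rise of Alox5ap was not called after quantile normalization (0.70) or without Cbfb+/MYH11 array 3 or 4. In Cbfb-/- Alox5ap fell by 2.02, and Alox5 was at -0.42 (adjusted p = 0.201).

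Cd9, a tetraspanin that organizes membrane receptors on platelets and many other cells, was lower in Cbfb+/MYH11. Its level was 6.11, 5.92, 6.04 and 6.59 in Cbfb+/MYH11, 8.18, 8.55, 7.19 and 7.06 in WT, 7.59, 7.37 and 7.50 in Cbfb-/- and 7.99, 8.04 and 8.05 in Cbfb+/+. Arrays of each mutant lay below their own littermates. Cd9 fell by 1.58 in Cbfb+/MYH11 (2.99-fold, 2.02 to 4.43; adjusted p = 5.11e-04), by 2.35 in the first array pair and by 0.81 in the second, a difference of 1.53 between pairs (adjusted p = 7.18e-04). Its change in Cbfb-/- was -0.54 (interval -1.19 to 0.11; adjusted p = 0.263). The alleles differed by -1.04 (interval -1.91 to -0.18; adjusted p = 0.15), or -1.27 and called without WT array 4 (adjusted p = 0.0479). Of 11 other tetraspanins with a probe set, 1 rose and 2 fell in Cbfb+/MYH11 (Cd53 by 1.67, Tspan18 by 0.94), and 0 rose and 2 fell in Cbfb-/-. Quantile normalization gives 0 and 6 in Cbfb+/MYH11, and 0 and 4 in Cbfb-/-. Without it, the shares over all probe sets were 10.5% higher and 2.94% lower in Cbfb+/MYH11, and 6.66% and 3.03% in Cbfb-/-.

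**Figure D2:**
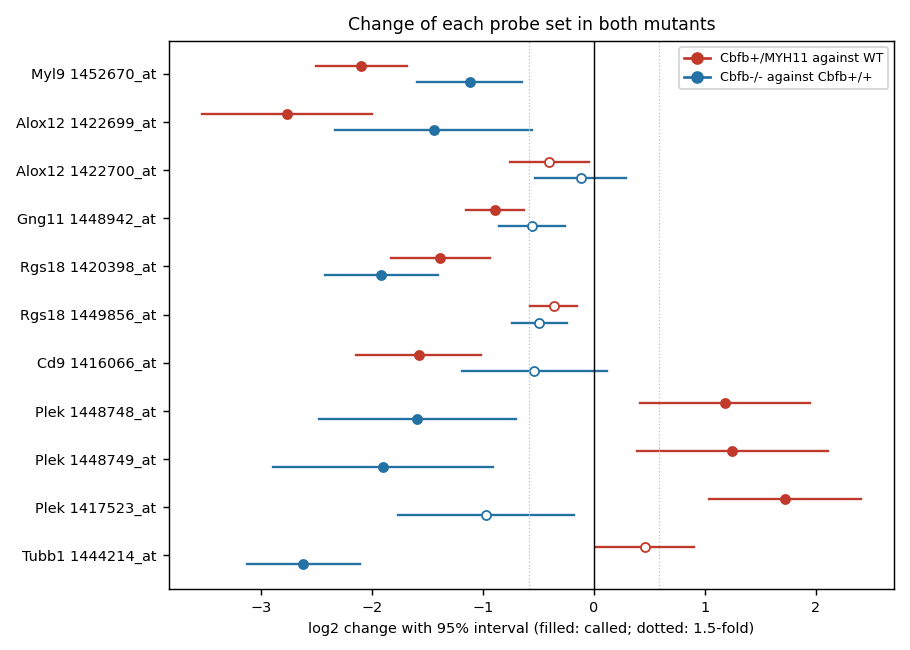
The log2 change of each of the 11 probe sets in both mutants against their own littermates, with 95% intervals; filled points were called and dotted lines mark 1.5-fold. Tubb1 lies at 0.46 with the fusion and -2.62 without Cbfb, and Myl9 is to the left of the dotted line in both.

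Within the pairs of the fusion cross 5 genes fell in each pair: Myl9, Alox12, Gng11, Rgs18 and Cd9. In arrays 1 and 2, 6.78% of all probe sets were called lower and 13.3% higher, and in arrays 3 and 4, 3.44% and 9.88%. By the probe set of highest mean of each gene, 0 rose in arrays 1 and 2 and 2, Plek and Tubb1, in arrays 3 and 4.

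**Figure D3:**
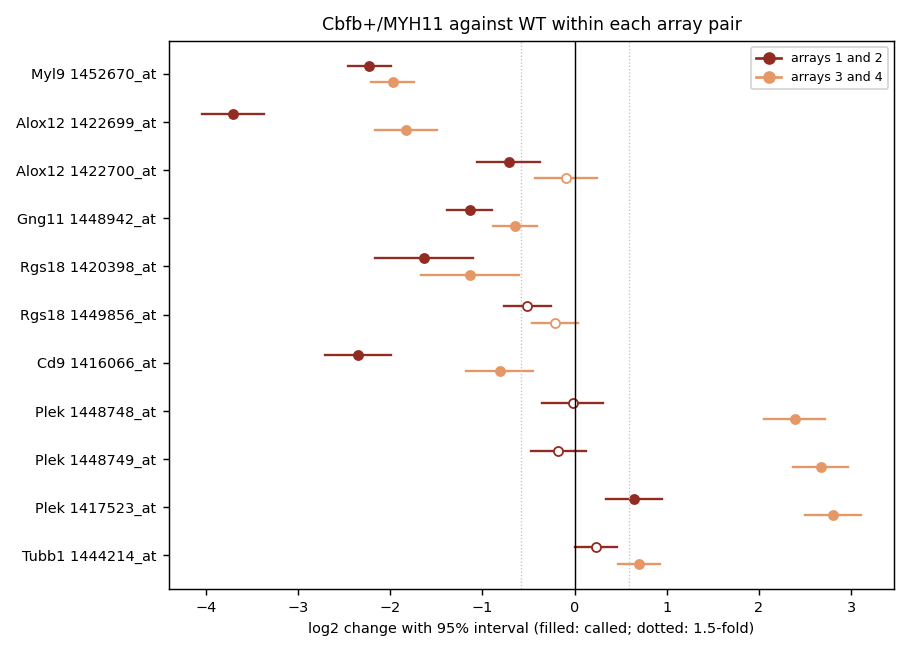
The log2 change against WT of each probe set within arrays 1 and 2 and within arrays 3 and 4 of the fusion cross. Plek 1448748_at moves from -0.02 to 2.39 and Alox12 1422699_at from -3.71 to -1.83, while Myl9 is at -2.23 and -1.97.

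The order of levels differed between the genes. Tubb1 ran from Cbfb+/MYH11 (mean 10.27 ± 0.27, SD, n = 4) through WT (9.80 ± 0.54, n = 4) and Cbfb+/+ (9.27 ± 0.01, n = 3) to Cbfb-/- (6.65 ± 0.07, n = 3), and only the first 2 neighbours overlapped. Plek ran from Cbfb+/MYH11 (8.76 ± 0.40) through Cbfb+/+ (7.77 ± 0.04) and WT (7.58 ± 0.99), which overlapped, to Cbfb-/- (6.18 ± 0.30). Gng11, Alox12, Cd9 and Rgs18 had Cbfb+/+ at the top and Cbfb+/MYH11 at the bottom. For Alox12 and Cd9 WT overlapped both its neighbours. Myl9 ran from WT (7.80 ± 0.31) through Cbfb+/+ (7.23 ± 0.04) and Cbfb-/- (6.11 ± 0.09) to Cbfb+/MYH11 (5.70 ± 0.45), with the last 2 overlapping.

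The genes whose profile over the 14 arrays was most like each member's are given by the root mean square difference of profiles centred on their means, among 7392 genes. For Tubb1 these were Neat1 (0.463), Trim12c (0.544) and Tmcc3 (0.589), against a spread of Tubb1 itself of 1.38. For Plek they were C3ar1 (0.232), Apoe (0.244) and Laptm5 (0.348), and for Alox12 Skap1 (0.318), Pf4 (0.354) and Clec1b (0.383). For Myl9 they were Plac8 (0.280), Pls3 (0.317) and Fam220a (0.348). The nearest to Gng11 was Hsd3b3 (0.108), to Rgs18 Gas6 (0.370) and to Cd9 Fcgrt (0.297).

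Of 23 other platelet cytoskeleton genes with a probe set, 4 rose and 3 fell in Cbfb+/MYH11, with a median change of -0.01, and 0 rose and 5 fell in Cbfb-/-, with a median of -0.14. Quantile normalization gives 2 and 5, and 0 and 7. Over all probe sets, without it, 6.66% were called higher and 3.03% lower in Cbfb-/-, and 10.5% and 2.94% in Cbfb+/MYH11. Of the 23 genes, 22 reached 6 on at least 3 arrays. Among all 12190 such probe sets, 3701 rose and 687 fell in Cbfb+/MYH11, with a median change of 0.27. Vcl, vinculin of focal adhesions, rose by 1.77, and Vasp, an actin regulator, by 1.13, both in each array pair. Mylk, the kinase that phosphorylates the light chain encoded by Myl9, fell by 2.11 in Cbfb+/MYH11. Like the summed level of the smooth muscle markers, though not each of them, it was higher on WT arrays 3 and 4 (mean 8.80) than on WT arrays 1 and 2 (mean 6.34). Fermt3, the kindlin that activates integrins in blood cells, rose by 1.05 and Was, an actin nucleation factor of blood cells, by 0.97. Neither was called after quantile normalization, and Was was not called without Cbfb+/MYH11 array 3 or 4. Within arrays 1 and 2 they were at 0.22 and 0.05 and within arrays 3 and 4 at 1.89 and 1.88. In Cbfb-/- both fell by 2.10, Coro1a by 1.54 and Parvb by 1.19. The difference between the alleles was called above 0 for 8 of the 23 and below 0 for 2, Flna (-1.33) and Pdlim1 (-0.79). Over all probe sets 4.72% and 2.8% were called so. It was 3.15 for Fermt3, 3.07 for Was, 2.25 for Coro1a and 1.71 for Parvb, all called. All 4 are expressed in other blood cells too.

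Of 32 other platelet signalling genes, 2 rose and 7 fell in Cbfb+/MYH11, and 2 rose and 10 fell in Cbfb-/-, with median changes of -0.16 and -0.33. The shares over all probe sets were 10.5% higher and 2.94% lower in Cbfb+/MYH11, and 6.66% and 3.03% in Cbfb-/-. The adaptors Fyb1 and Lat and the kinase Syk, which act below platelet receptors, fell with both alleles, by 1.18, 0.98 and 0.95 in Cbfb+/MYH11 and by 1.32, 0.93 and 0.91 in Cbfb-/-. Without Cbfb-/- array 3 the Fyb1 call in Cbfb-/- was lost, and without Cbfb+/+ array 2 the Lat call. The kinase Fyn rose by 1.36 in Cbfb+/MYH11 and the adaptor Lcp2 by 1.20, which lies at -0.86 in Cbfb-/- and was not called there. The fusion effects on Fyb1, Lat and Lcp2 depended on the array pair. In arrays 3 and 4 their changes were higher than in arrays 1 and 2 by 1.03, 0.98 and 1.55, all called. For Syk and Fyn the pairs differed by 0.16 and -0.21, not called. The probe sets of Fyb1, Syk and Lcp2, like those of Tubb3 and Cd53 above, did not reach a log2 level of 6 on at least 3 arrays, so their levels may be background and the sizes of their changes are uncertain. Of 12 megakaryocyte and platelet markers, 0 rose and 8 fell in Cbfb+/MYH11, and 0 rose and 10 fell in Cbfb-/-, with median changes of -1.63 and -1.66. The group means of 4 of the 12 in Cbfb+/MYH11, 9 in WT, 4 in Cbfb-/- and 10 in Cbfb+/+ reached 6. Their summed level was 9.51 to 9.71 in Cbfb+/MYH11, 11.85 to 12.10 on WT arrays 1 and 2, 10.41 to 10.43 on WT arrays 3 and 4, 9.98 to 10.05 in Cbfb-/- and 11.68 to 11.75 in Cbfb+/+. Their part in the results of the 7 genes was not tested.

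**Figure D4:**
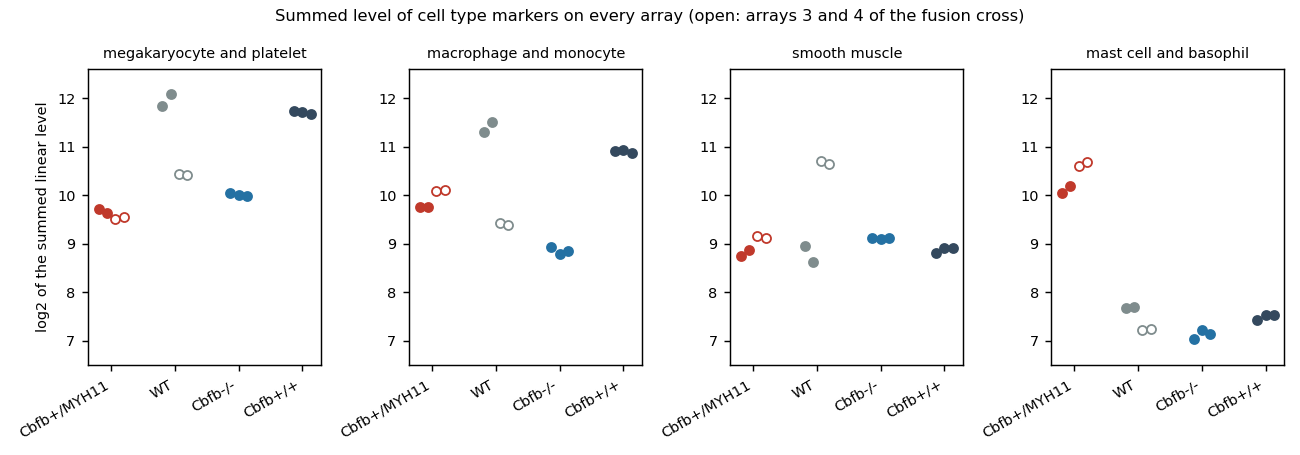
The summed linear level, as log2, of 4 marker lists on each array; open points are arrays 3 and 4 of the fusion cross. The megakaryocyte and platelet sum of the WT arrays splits into 11.85 to 12.10 and 10.41 to 10.43, and the smooth muscle sum splits the other way.

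**Figure D5:**
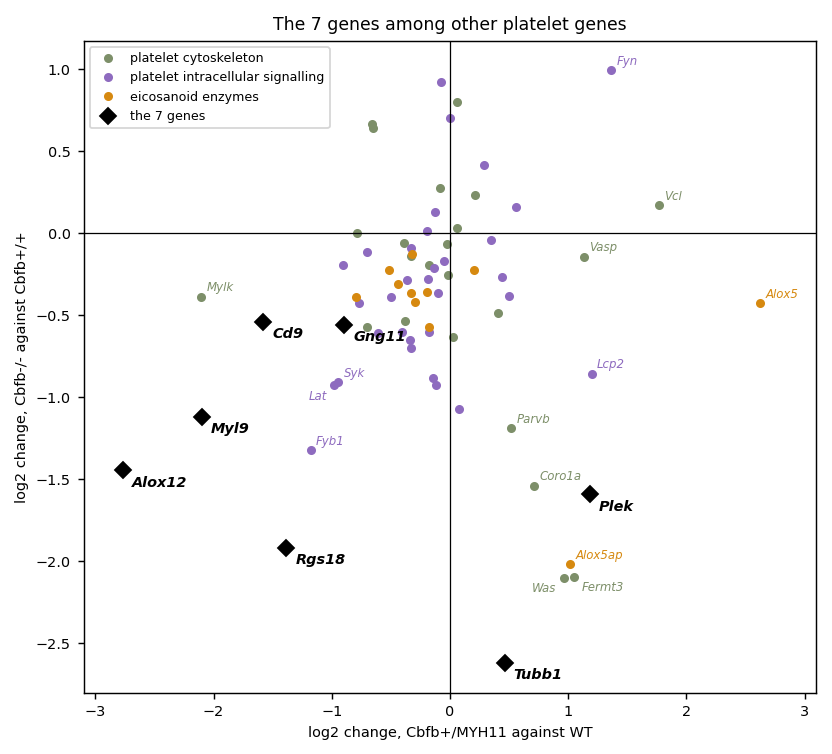
The log2 change in Cbfb-/- (vertical) against that in Cbfb+/MYH11 (horizontal) for the 7 genes and the genes of 3 lists. Tubb1 and Plek lie at the lower right near Fermt3, Was and Alox5ap, and Myl9, Alox12 and Rgs18 at the lower left.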

How the data were processed

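The deposited log2 values (45101 probe sets, 14 arrays) were used unchanged. The authors made them with RMA in Affymetrix Expression Console, per the submitters' processing notes, whose versions are not given. Probe sets were named by the platform annotation. Of them 64 are array controls, and 45037 were tested without a filter on dim values. The package limma 3.58.1 (lmFit, contrasts.fit, eBayes; R 4.3.3) fitted the means of 4 groups, or with 6 groups to separate arrays 1 and 2 from 3 and 4. P-values were adjusted by Benjamini and Hochberg over all probe sets, and calls needed 1.5-fold or more with an adjusted p under 0.05. In simulated data of the fusion comparison (45037 probe sets) 59.2% of changes of 0.8 and 96.4% of changes of 1.5 were recovered. There the arrays varied independently and 200 probe sets were changed. The real arrays fall into pairs, so these rates may not hold for them. Arrays of the same number in the fusion cross deviated together (correlations 0.522, 0.410, 0.496 and 0.500), as did arrays of a pair; in the null cross they were 0.019, 0.009 and 0.034. The 7 genes, 12 gene lists and rules for naming genes were chosen with earlier results of these data known: all probe sets of the 7, the 3 genes most alike, and called list genes, up to 3 with the largest rise and 3 with the largest fall of each effect. Endothelial and erythroid marker lists gave 1 higher and 2 lower, and 2 higher and 0 lower, in Cbfb+/MYH11, and 2 higher and 0 lower, and 0 and 0, in Cbfb-/-. Lymphoid markers gave 0 and 0 in both. 0 columns of other series were used.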

Additional observations from a re-analysis of the deposited data

Results flagged for a closer look

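On Rgs18 1420398_at the level of WT array 2, 4.56, lay apart from the other 3 WT arrays, with a gap of 0.884 of the range of the group, above the critical value of Dixon's test at 95% for 4 arrays. Of 22 groups of 4 arrays tested this was the only one. Chance gives about 1 in 20 for independent arrays, which arrays in pairs are not. Where 2 pairs stand apart, the gap of the extreme array is small against the range. The lack of other flags therefore tells little. The change in Cbfb+/MYH11 differed from that in Cbfb-/- for Tubb1 1444214_at by 3.08, and for Plek by 2.78 on 1448748_at, 3.15 on 1448749_at and 2.70 on 1417523_at. The change in the fusion cross differed between arrays 3 and 4 and arrays 1 and 2 for Plek by 2.41, 2.84 and 2.16 on the same probe sets, for Alox12 1422699_at by 1.88 and for Cd9 1416066_at by 1.53. The split into these array pairs was made after seeing the same data.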

How the results depend on the processing

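Of 896 values of single probe sets under other settings, 817 kept their direction and side of the threshold, 49 lost a call, 24 gained one and 6 changed sign. The 6 are uncalled values: Plek in Cbfb+/+ against WT, at -0.0958 and -0.0846 on 1448748_at and -0.0281 and -0.0365 on 1448749_at without WT array 3 or 4 (0.511 and 0.664 at most without another array), and, with arrays centred on their median, Plek 1448748_at in arrays 1 and 2 at 0.103 and Alox12 1422700_at in arrays 3 and 4 at 0.0057. The harshest setting averages the arrays into 6 putative pools (arrays 1 and 2, and 3 and 4, of each fusion-cross genotype, and 1 for each null-cross genotype). It gave 58 called probe sets in the fusion comparison against 6071, and 0 in the null comparison, the difference of effects and Cbfb+/+ against WT, and 0 member genes lower or higher in any of them; by limma's unadjusted p under 0.05 there were 1728, 1924 and 1736 probe sets in the last 3. With the replicate number as a block the difference of effects had 5085 calls against 3385, and with the array pair 5870; members lower there were 1 and 2 against 0. Among single probe sets of the 7 genes the replicate block changed 2 calls, Plek 1448749_at with the fusion (lost) and the difference for Myl9 (gained), and no other. The pair block gave 3110 in Cbfb+/+ against WT. With 1 probe set per gene and a filter of 6 on 3 arrays the counts were 2671 (fusion), 1935 (null), 1548 (difference), 830 (Cbfb+/+ against WT), 3299 (arrays 1 and 2), 2295 (arrays 3 and 4) and 1446 (difference between pairs), and with the mean of a gene's probe sets 2514, 1865, 1823 and 622 in the first 4, since fewer features are tested. The filter alone gave 5540 and 3771 in the pairs. Without the fold minimum there were 11422, 3949, 15627 and 9767 in the fusion comparison, Cbfb+/+ against WT and the pairs. Members called higher with the fusion fell from 1 to 0 under quantile normalization and with the cross alone, and ranged from 0 to 2 without single arrays; in arrays 3 and 4 quantile normalization gave 1 of the 2. Members lower in the null ranged from 3 to 4 without single arrays, and all called probe sets from 2879 to 3299. Members lower in the difference were 1 under quantile normalization, the filter, 1 probe set per gene and the mean of probe sets, and 0 to 2 without single arrays. The member higher in Cbfb+/+ against WT, Rgs18, was not tested under the filter or 1 probe set per gene (0). Quantile normalization split the fusion calls into 3304 higher and 2080 lower, and centring into 5773 and 713, against 4746 and 1325; in the null they were 2365 and 1910, and 3260 and 1089, against 2998 and 1365. The median change of all probe sets was -0.05 and -0.04 under quantile normalization. The cause was not tested. Levels under 6, as for Rgs18, limit what sizes can be read.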
